A study of Homo sapiens with 16 samples.

Results

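The genes described here are 7 members of the aryl hydrocarbon receptor (AHR) pathway: *CYP1A1*, *CYP1B1*, *AHR*, *AHRR*, *ARNT*, *TIPARP* and *NQO1*. They were taken by gene name from the count tables, in which they fill 8 of 60623 rows because *AHRR* is listed under 2 identifiers. The members were chosen by their CPM (counts scaled to a common library total) and fold changes in the comparisons given below. Their values are therefore a description, and no p-value is given for a member. Both inhibitors were set against DMSO and against each other, and both shRNAs against a non-targeting control, to ask how these genes differed between the treatments.

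MUTZ-3 is an acute myeloid leukemia line with inv(3), grown here with GM-CSF and with medium conditioned by 5637 cells, a bladder carcinoma line. All groups share this line and this medium. In the PARP inhibition (PARPi) experiment, cells were left untreated at 0 h, or were given olaparib (10 µM), talazoparib (1 µM) or their vehicle DMSO and harvested after 12, 24 or 48 h. For the knockdown, cells carried a lentiviral pLKO.1 vector with a non-targeting control (NTC), shEVI1-2531 or shEVI1-2532, were selected with puromycin and were harvested at day 3 or day 6. Each of these 16 conditions is 1 library, so every p-value below measures the spread between time points or days and none the spread between cultures. The deposited files of the 2 libraries labelled shEVI1-2531 carry another construct number in their names, and the identity of that shRNA rests on the sample labels. *EVI1*, listed as *MECOM*, had 42.4 CPM in NTC, 12.3 CPM with shEVI1-2531 and 4.51 CPM with shEVI1-2532 at day 3, and 44.2, 18.5 and 4.03 CPM at day 6. It was thus lower in all 4 libraries labelled as knockdown than in both NTC libraries.

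AHR is a transcription factor that waits in the cytosol in a complex with HSP90 chaperones and moves to the nucleus once a ligand, such as a dioxin, an indole or a tryptophan metabolite, binds it. There it pairs with ARNT and binds short response elements with the core GCGTG in promoters and enhancers. Among its best known targets are *CYP1A1* and *CYP1B1*, which encode enzymes that oxidise many of these ligands, and *AHRR* and *TIPARP*, whose products lower AHR activity in turn. In blood formation, AHR is known for its influence on hematopoietic stem and progenitor cells. Olaparib and talazoparib both occupy the NAD+ pocket of PARP1 and PARP2, and TIPARP belongs to the same enzyme family.

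Promoter windows, reaching from 250 bases before to 50 bases after a transcript start, were held by RefSeq (GRCh38.p14) for 6 of the 7 members, in 9 windows. *CYP1B1* had none. The stretch before the start is printed for the genes whose values the comparisons turn on and for the feedback repressor *AHRR*, each 5′ to 3′ on the strand of the gene, with capitals marking the core GCGTG or its reverse complement CACGC. The first lies at chr15:74725529-74725778 on the minus strand, the second at chr3:156674340-156674589 on the plus strand and the third at chr5:321464-321713 on the plus strand.
CYP1A1: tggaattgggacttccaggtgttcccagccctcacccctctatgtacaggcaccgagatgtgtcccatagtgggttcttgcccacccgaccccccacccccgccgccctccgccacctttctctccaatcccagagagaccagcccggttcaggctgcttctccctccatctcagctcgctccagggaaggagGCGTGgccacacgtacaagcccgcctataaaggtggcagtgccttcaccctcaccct
TIPARP: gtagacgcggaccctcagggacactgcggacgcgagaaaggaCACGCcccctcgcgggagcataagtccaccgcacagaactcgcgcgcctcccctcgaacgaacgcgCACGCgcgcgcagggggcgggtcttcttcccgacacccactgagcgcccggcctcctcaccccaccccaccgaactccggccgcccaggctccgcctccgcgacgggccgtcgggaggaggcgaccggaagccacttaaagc
AHRR: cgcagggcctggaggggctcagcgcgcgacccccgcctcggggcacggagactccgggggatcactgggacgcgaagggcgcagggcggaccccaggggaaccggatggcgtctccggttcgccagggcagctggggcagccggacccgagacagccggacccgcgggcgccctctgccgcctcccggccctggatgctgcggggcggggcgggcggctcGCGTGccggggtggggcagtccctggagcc
The *CYP1A1* window held 1 core, which began 57 bases before the start. In the first *TIPARP* window, the one printed, 2 cores lay on the opposite strand, beginning 142 and 208 bases before the start. The later windows of *TIPARP* held none. The first *AHRR* window held 1, 30 bases before the start. The core was found on either strand in 6 of the 9 windows of the members and in 36.5% of all 35116 windows of this length. The longer element TNGCGTG, which contains the core, was found in 2 of the 9 windows, the first of *AHRR* and that of *NQO1*, against 5.51% of all windows. A match describes these letters only, and says nothing of binding in MUTZ-3 cells.

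Library totals ran from 55999673 to 72681943 counts for PARPi and from 95523038 to 120716213 for the knockdown. A level of 3 counts, the least taken as detectable, came to between 0.0249 and 0.0536 CPM. Intervals of single libraries and of their ratios cover counting error only. The leukemia identity markers *PTPRC*, *CD33*, *SPI1*, *MPO* and *CSF2RA* were detected in all 16 libraries, the lowest with 70.3 CPM of *CSF2RA*.

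Scaled to the length of their merged exons, the members covered a wide range of levels. The median over 16 libraries was 23.3 CPM per kilobase for *NQO1* (range 14.2 to 35.8), 12.5 for *ARNT* (7.73 to 16.3) and 11.4 for *TIPARP* (6.52 to 20.5), so that the ranges of these neighbours overlapped. *AHR* itself had a median of 0.891 CPM per kilobase (0.440 to 2.39), *AHRR* (ENSG00000063438) of 0.508 (0.379 to 0.677) and *CYP1A1* of 0.413 (0.0989 to 3.97). These 3 ranges also overlapped, and that of *CYP1A1* was the widest. The longer row of *AHRR* (ENSG00000286169) is missing from the annotation that gave the exon lengths and has no such value. Not scaled to length, its median was 59.3 CPM against 3.90 CPM for ENSG00000063438, so the place of *AHRR* in this order is uncertain. *CYP1B1*, on chromosome 2 from 38066973 to 38109902, encodes an AHR-induced enzyme that acts on estrogens and aromatic hydrocarbons. It had at most 5 counts in any library and none in 10 of the 16, so that a difference between groups was not detectable at this depth.

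*CYP1A1* (ENSG00000140465, chromosome 15, 74719542 to 74725536, minus strand) encodes the cytochrome P450 that is most commonly used to read out AHR activity. In the untreated library it had 42 counts or 0.611 CPM (95% interval 0.440 to 0.826). The DMSO libraries had 0.816 CPM at 12 h, 0.427 CPM at 24 h and 0.345 CPM at 48 h. With olaparib the level was 3.65 CPM at 12 h, 6.29 CPM at 24 h and 13.6 CPM at 48 h, from 230, 423 and 821 counts. By library total all 3 olaparib libraries lay above every other library of the series, although the interval at 12 h (3.19 to 4.15) met that of the highest shRNA library. With library totals corrected by TMM factors, shEVI1-2532 at day 6 (3.76 CPM) lay above olaparib at 12 h (3.36 CPM). By library total the *CYP1A1* level with talazoparib was 1.37, 1.71 and 2.91 CPM at the same hours, from 98, 99 and 163 counts. Each talazoparib library lay above all DMSO libraries and below the olaparib library of its hour, and the highest of them below the lowest with olaparib. In bulk libraries more cells that express a gene and more RNA per cell cannot be told apart.

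**Figure D1:**
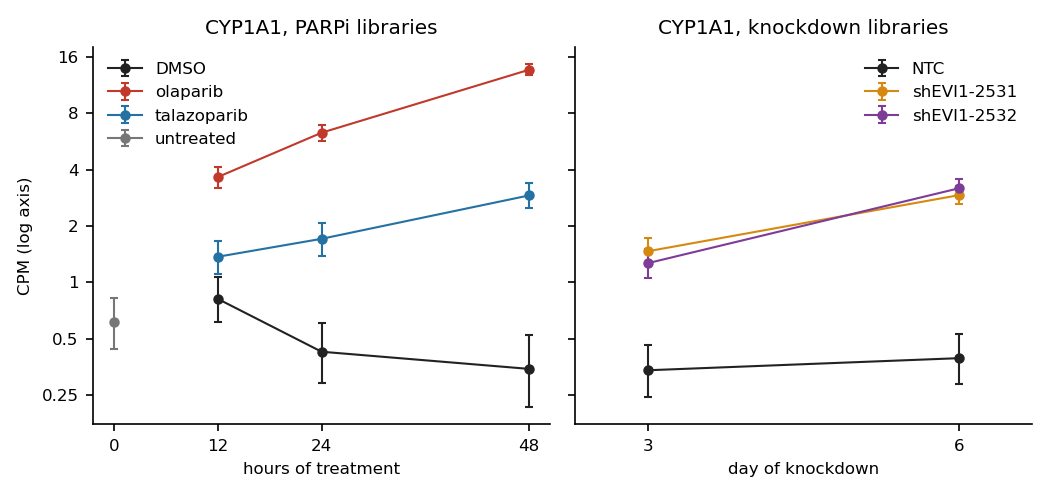
CPM of CYP1A1 on a log axis against hours of treatment (left) and day of knockdown (right), with 1 point per library and bars for the exact Poisson 95% interval of its count. Olaparib reached 13.6 CPM and talazoparib 2.91 CPM at 48 h while DMSO was at 0.345 CPM, and both shRNAs were near 3 CPM at day 6 while NTC was at 0.394 CPM.

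Against DMSO of the same hour, *CYP1A1* was 4.47 times as high with olaparib at 12 h (log2 ratio 2.16, 95% interval 1.72 to 2.62), 14.7 times at 24 h (3.88, 3.35 to 4.46) and 39.5 times at 48 h (5.30, 4.69 to 5.99). With talazoparib it was 1.68 times as high at 12 h (0.75, 0.25 to 1.26), 4.0 times at 24 h (2.0, 1.41 to 2.63) and 8.43 times at 48 h (3.08, 2.43 to 3.79). The ratios grew with the hours for both inhibitors. Part of that growth lay in the controls, since *CYP1A1* in DMSO was lower at 24 h (log2 ratio −0.94, −1.63 to −0.27) and at 48 h (−1.24, −2.03 to −0.50) than at 12 h, from 53, 31 and 22 counts. Against the mean of the 3 DMSO libraries the log2 ratios were 2.78, 3.57 and 4.69 with olaparib and 1.37, 1.69 and 2.46 with talazoparib. Over the time points, the edgeR fit gave a log2 fold change of 3.72 (SE 0.53, 95% interval 2.50 to 4.95) with olaparib and 1.86 (SE 0.52, 0.66 to 3.06) with talazoparib. Both estimates use the same DMSO libraries.

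Set directly against each other, without DMSO, *CYP1A1* with talazoparib was 37.6% of the olaparib level at 12 h (log2 ratio −1.41, −1.77 to −1.07), 27.2% at 24 h (−1.88, −2.21 to −1.56) and 21.3% at 48 h (−2.23, −2.48 to −1.98). The fitted difference was −1.86 (SE 0.47, 95% interval −2.93 to −0.79). It was the largest difference between the inhibitors among the members. The doses differed, 10 µM of olaparib and 1 µM of talazoparib, so these values compare the treatments as given and not the compounds at a matched dose.

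*TIPARP* (ENSG00000163659, chromosome 3, 156673235 to 156706770) encodes a mono-ADP-ribosyltransferase that is induced by AHR and lowers AHR activity. It had 47.5 CPM untreated and 52.7, 49.3 and 60.3 CPM with DMSO at 12, 24 and 48 h. With olaparib it had 79.4, 94.9 and 103.5 CPM and with talazoparib 55.2, 75.4 and 68.7 CPM. By library total the olaparib libraries lay above all DMSO and talazoparib libraries, while the talazoparib libraries overlapped the range of DMSO. With TMM scaling, *TIPARP* with talazoparib at 48 h (74.4 CPM) lay just above olaparib at 12 h (73.2 CPM). With olaparib *TIPARP* was 1.51 times DMSO at 12 h (log2 ratio 0.59, 0.53 to 0.66), 1.93 times at 24 h (0.95, 0.89 to 1.01) and 1.72 times at 48 h (0.78, 0.72 to 0.84). With talazoparib the ratios were 1.05 (0.07, with an interval that reached just below 0 and up to 0.13), 1.53 (0.61, 0.55 to 0.68) and 1.14 (0.19, 0.12 to 0.25). The fitted log2 fold changes were 0.83 (SE 0.13) with olaparib and 0.39 (SE 0.13) with talazoparib, and the difference, talazoparib minus olaparib, was −0.44 (95% interval −0.73 to −0.14). As for *CYP1A1*, the level with talazoparib was lower than with olaparib at each hour, with log2 ratios of −0.53, −0.33 and −0.59. The antisense gene *TIPARP-AS1* overlaps the start of *TIPARP*, and its 19 to 108 counts were few beside the 3265 to 7435 of *TIPARP*.

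*AHR* (ENSG00000106546, chromosome 7, 16916359 to 17346152), the receptor, had 6.25, 7.32 and 6.75 CPM with DMSO at 12, 24 and 48 h. It had 6.84, 9.99 and 7.94 CPM with olaparib and 8.48, 11.1 and 7.70 CPM with talazoparib. Every treated library was above the DMSO library of its hour, by 1.09 to 1.36 times with olaparib and 1.14 to 1.51 times with talazoparib, although the counting interval included no difference for olaparib at 12 h (log2 ratio 0.13, −0.07 to 0.33) and talazoparib at 48 h (0.19, −0.01 to 0.39). The untreated library had 19.3 CPM, the highest of all 16. The fitted difference between the inhibitors was 0.18 (95% interval −0.12 to 0.48), an interval that includes 0 and reaches 0.48 towards talazoparib.

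*ARNT* (ENSG00000143437, chromosome 1, 150809713 to 150876708, minus strand), the partner that AHR shares with the hypoxia-inducible factors, had 76.0, 79.1 and 86.3 CPM with DMSO, 80.8, 91.8 and 88.7 CPM with olaparib and 86.3, 95.1 and 93.4 CPM with talazoparib. The levels followed one another closely, and log2 ratios to DMSO lay between 0.04 and 0.21 with olaparib and between 0.11 and 0.27 with talazoparib. The inhibitors differed by 0.12 in the fit (95% interval −0.11 to 0.34).

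*AHRR* encodes a repressor that competes with AHR for ARNT and for the response elements. Its rows are uncertain. ENSG00000286169 (chromosome 5, 271670 to 438291) spans both ENSG00000063438 (321759 to 435110) and *PDCD6*, and reads shared between such rows could be divided or dropped in counting. The longer row had 2614 to 7872 counts, the shorter one 201 to 511 and *PDCD6* 193 to 580. Whether the reads of the longer row come from *AHRR* or from *PDCD6* cannot be told from these counts. The longer row had 57.7, 37.1 and 41.0 CPM with DMSO, 70.4, 60.8 and 54.2 CPM with olaparib and 67.2, 45.5 and 64.5 CPM with talazoparib. Each treated library was above the DMSO library of its hour, by 1.22, 1.64 and 1.32 times with olaparib and 1.16, 1.23 and 1.57 times with talazoparib. The order of the inhibitors was not the same at each hour, as talazoparib was below olaparib at 24 h (log2 ratio −0.42, −0.49 to −0.35) and above it at 48 h (0.25, 0.18 to 0.32). The shorter row had 3.47 to 5.20 CPM in the 9 libraries with DMSO or an inhibitor. Olaparib was above DMSO at 12 h (log2 ratio 0.38, 0.14 to 0.62) and at 24 h (0.31, 0.07 to 0.56), and the other 4 intervals included 0. The fitted differences between the inhibitors were −0.03 (95% interval −0.40 to 0.34) for the longer row and −0.23 (−0.56 to 0.09) for the shorter one.

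*NQO1* (ENSG00000181019, chromosome 16, 69706996 to 69726668, minus strand) encodes a quinone reductase under the control of both AHR and NRF2. It had 92.6, 84.0 and 76.0 CPM with DMSO, 88.2, 75.9 and 57.4 CPM with olaparib and 81.9, 72.9 and 46.3 CPM with talazoparib. It was lower with either inhibitor than with DMSO at each hour, opposite in direction to *CYP1A1* and *TIPARP*, and log2 ratios went from −0.07 (−0.12 to −0.02) at 12 h to −0.40 (−0.47 to −0.34) at 48 h with olaparib and from −0.18 (−0.23 to −0.12) to −0.71 (−0.78 to −0.65) with talazoparib. Against the mean of the 3 DMSO libraries the olaparib library at 12 h was higher by 0.07. At 48 h talazoparib was below olaparib (log2 ratio −0.31, −0.38 to −0.24), and in the fit the difference was −0.12 (95% interval −0.36 to 0.13).

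**Figure D2:**
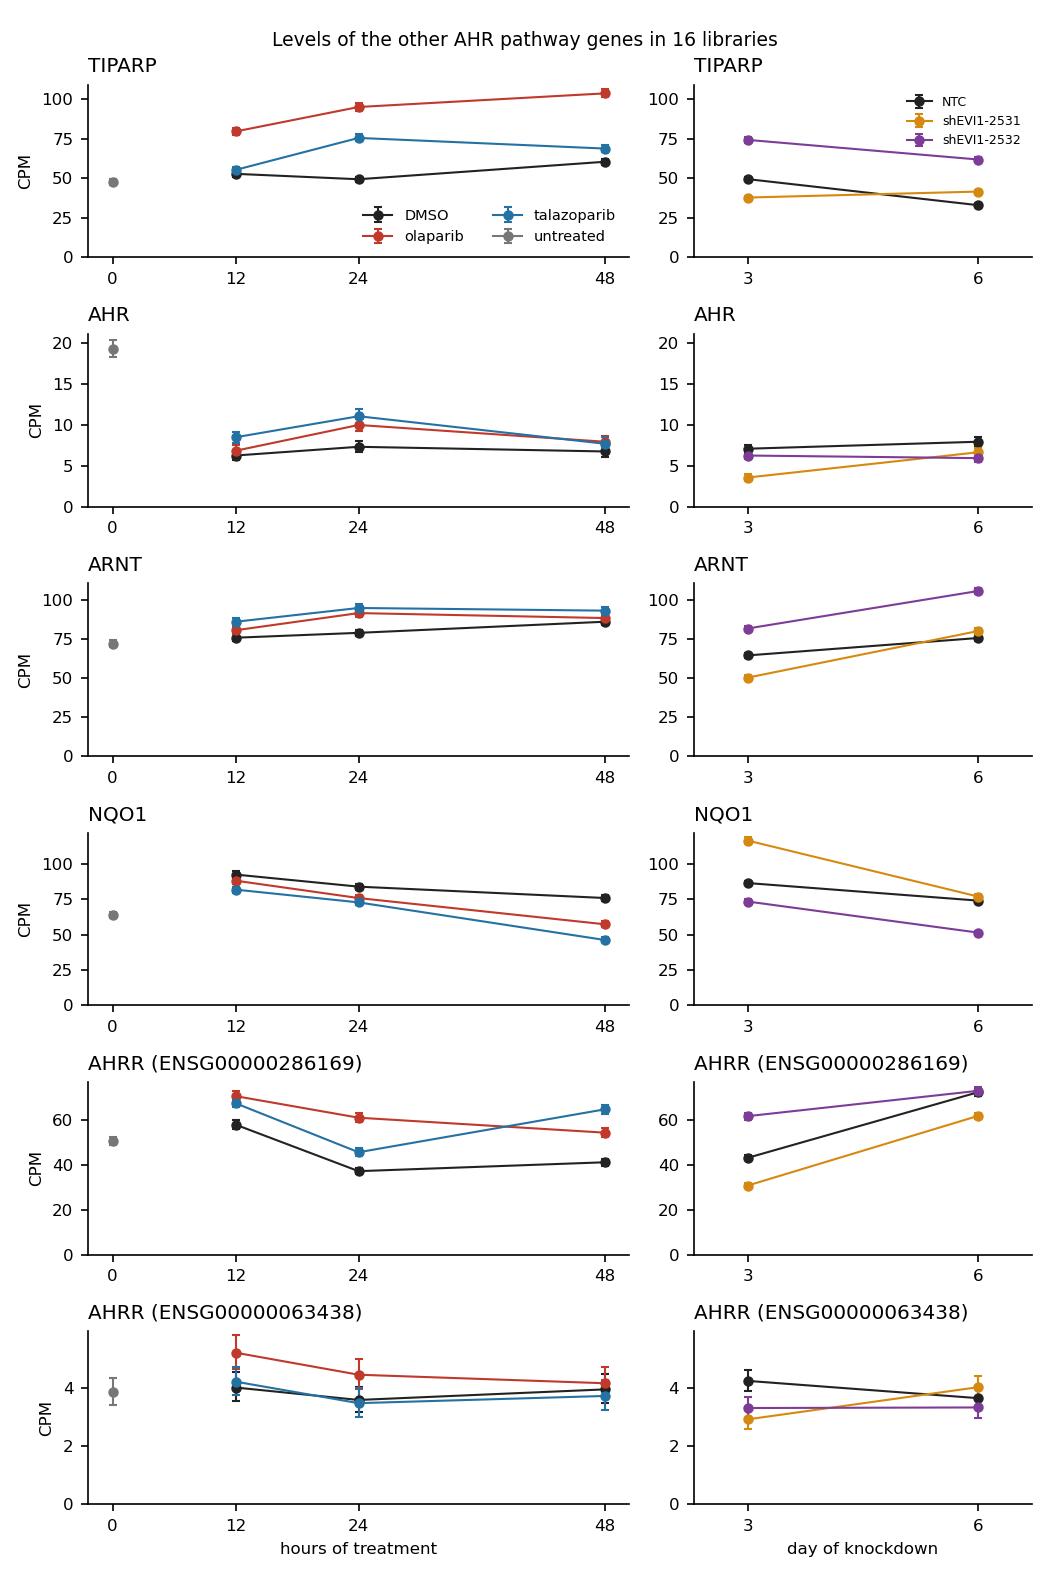
CPM of the other 5 detected members, AHRR by its 2 rows, against hours of treatment (left) and day of knockdown (right), with axes from 0, 1 point per library and bars for the exact Poisson 95% interval of its count. TIPARP with olaparib reached 103.5 CPM against 60.3 CPM with DMSO at 48 h, AHR was highest untreated at 19.3 CPM, and NQO1 was lowest with talazoparib at 48 h at 46.3 CPM.

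**Figure D3:**
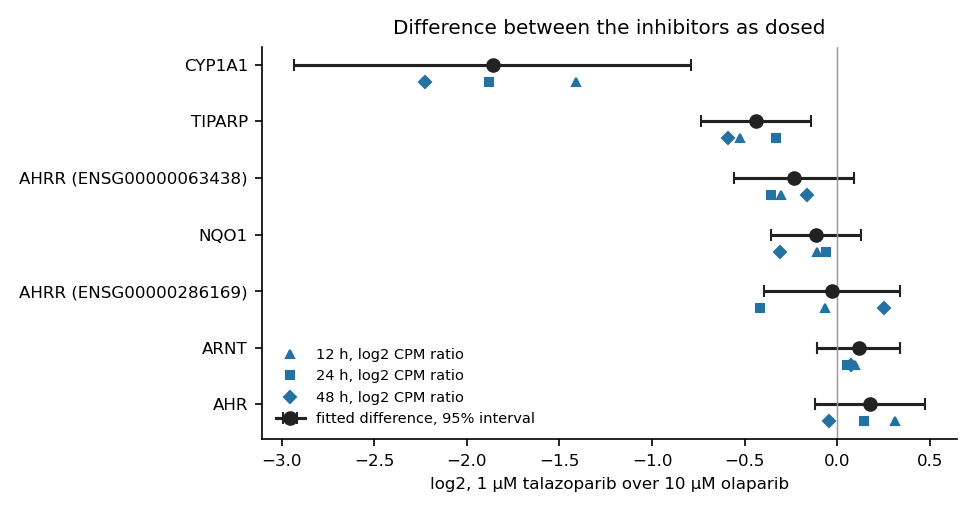
Log2 difference, 1 µM talazoparib over 10 µM olaparib, for 7 rows of the members. Black points and bars give the edgeR fit over 3 time points with its 95% interval and blue marks the log2 CPM ratio at each hour. The intervals of CYP1A1 (−2.93 to −0.79) and TIPARP (−0.73 to −0.14) lie below 0 and those of the other rows include 0. They are not adjusted over genes, and the members were chosen with this contrast known, so they are no test. After adjustment 0 of 17218 genes passed in this contrast.

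The same comparisons over all genes give the background for these values. A gene entered the test when 3 or more of the 9 libraries had 10 counts or more, which 7 of the 8 rows of the members reached, *CYP1B1* being the one left out. In the edgeR quasi-likelihood test, adjusted after Benjamini-Hochberg, 110 of 17218 genes (0.639%) passed for olaparib against DMSO, all of them higher, and 688 (4.0%) for talazoparib against DMSO, of which 516 were higher and 172 lower. The genes called with olaparib included *CYP1A1* and *TIPARP*, and those called with talazoparib included none of the members. Which members were called changed with the setting. With olaparib *TIPARP* was not called with library total scaling. With talazoparib *AHR* and *CYP1A1* were called with DESeq2, the longer row of *AHRR* and *CYP1A1* with no filter on low counts, and *AHR* with upper quartile scaling. Since these contrasts chose the members, nothing is read from those counts. For talazoparib against olaparib, 0 of 17218 genes (0.00%) passed in edgeR, 354 had an unadjusted p under 0.05, and DESeq2 called 1 gene, which was no member. This does not show that the inhibitors act alike. With no filter on low counts 5 genes were called in this contrast, and *CYP1A1* was among them. As this contrast also chose the members, nothing is read from that call.

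These counts depended on the time points. Without the 24 h libraries, edgeR called 0 of 16613 genes for olaparib and for talazoparib alike, with 729 and 2495 genes at an unadjusted p under 0.05. Without the 12 h libraries it called 934 and 3954 genes and without the 48 h libraries 325 and 1183. *CYP1A1* and *TIPARP* were among the genes called for olaparib in both of the latter fits, and *CYP1A1* among those called for talazoparib. These fits use the libraries that chose the members, so nothing is read from these calls either. With DESeq2, 669 genes were called for olaparib (584 higher, 85 lower) and 3740 for talazoparib (1965 higher, 1775 lower). Scaled to the library total only, 179 genes were called for talazoparib, of which 162 were higher.

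By the size of the CPM ratio in single pairs of libraries, among genes that reached 10 counts in either library, *CYP1A1* was the member past 2-fold with olaparib at 12, 24 and 48 h, where 5.26%, 9.79% and 22.6% of all genes were past 2-fold in either direction. With talazoparib no member was past 2-fold at 12 h, where 5.57% of all genes were, and *CYP1A1* was at 24 and 48 h, beside 13.5% and 35.0%. Between talazoparib and olaparib *CYP1A1* was past 2-fold at all 3 hours, beside 4.37%, 5.22% and 8.34% of all genes. The other 6 rows tested stayed within 2-fold in all of these pairs by library total and with TMM. With upper quartile scaling the longer row of *AHRR* with talazoparib at 48 h was past it, with a log2 ratio of 1.03 against 0.65 by library total and 0.91 with TMM. Against the mean of the 3 DMSO libraries *CYP1A1* with talazoparib at 12 h was also past 2-fold (1.37).

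In the knockdown libraries, *CYP1A1* was higher with both shRNAs on both days. NTC had 0.340 CPM at day 3 and 0.394 CPM at day 6, from 41 and 43 counts. With shEVI1-2531 it had 1.47 CPM at day 3 and 2.92 CPM at day 6, and with shEVI1-2532 1.27 and 3.18 CPM. All 4 knockdown libraries lay above both NTC libraries, and the shRNAs lay within each other's counting intervals on either day. Against NTC of the same day, *CYP1A1* was 4.32 times as high at day 3 (log2 ratio 2.11, 1.60 to 2.65) and 7.42 times at day 6 (2.89, 2.43 to 3.38) with shEVI1-2531. With shEVI1-2532 it was 3.73 times (1.90, 1.38 to 2.44) and 8.07 times as high (3.01, 2.55 to 3.51). The fitted log2 fold changes were 2.65 (SE 0.33) and 2.77 (SE 0.34), and both use the same NTC libraries. Across the whole series, the order of the *CYP1A1* levels by library total ran from the olaparib libraries through those of the shRNAs and talazoparib to the controls. With TMM, shEVI1-2532 at day 6 stood above olaparib at 12 h. The shRNA libraries of day 6 did not differ beyond counting error from talazoparib at 48 h, nor those of day 3 from talazoparib at 12 h.

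*TIPARP* was on different sides of NTC with the shRNAs at day 3. NTC had 49.4 CPM at day 3 and 32.9 CPM at day 6, shEVI1-2531 had 37.7 and 41.5 CPM, and shEVI1-2532 had 74.1 and 61.7 CPM. With shEVI1-2532 it was higher than NTC on both days, 1.5 times (log2 ratio 0.59, 0.54 to 0.64) and 1.88 times (0.91, 0.85 to 0.97), while with shEVI1-2531 it was lower at day 3 (−0.39, −0.45 to −0.33) and higher at day 6 (0.33, 0.27 to 0.40). *ARNT* had 64.6 and 75.8 CPM in NTC, 50.3 and 80.3 CPM with shEVI1-2531 and 81.9 and 106.0 CPM with shEVI1-2532. Its log2 ratios were −0.36 and 0.08 with shEVI1-2531 and 0.34 and 0.48 with shEVI1-2532. For both genes, only shEVI1-2532 was above NTC on both days.

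*AHR* had 7.08 and 7.94 CPM in NTC, 3.56 and 6.65 CPM with shEVI1-2531 and 6.25 and 5.93 CPM with shEVI1-2532. By library total it was lower with either shRNA, to 50.3% of NTC with shEVI1-2531 at day 3 (log2 ratio −0.99, −1.18 to −0.81), which was the lowest level of the series. With shEVI1-2532 at day 3 the log2 ratio was −0.18, but 0.018 with TMM and 0.19 with upper quartile scaling. The fitted log2 fold changes of *AHR* were −0.43 (95% interval −0.94 to 0.09) with shEVI1-2531 and 0.0082 (−0.50 to 0.52) with shEVI1-2532, and both intervals include 0. *NQO1* had 86.6 and 74.1 CPM in NTC, 116.6 and 77.0 CPM with shEVI1-2531 and 73.5 and 51.5 CPM with shEVI1-2532. It was higher than NTC with shEVI1-2531, by log2 ratios of 0.43 (0.39 to 0.47) and 0.05 (0.01 to 0.10), and lower with shEVI1-2532, by log2 ratios of −0.24 (−0.28 to −0.19) and −0.53 (−0.58 to −0.48). With upper quartile scaling the ratio of *NQO1* with shEVI1-2532 at day 3 was 0.14, and the fitted changes were 0.41 (0.11 to 0.71) with shEVI1-2531 and −0.08 (−0.38 to 0.22) with shEVI1-2532. The longer row of *AHRR* had 43.0 and 72.2 CPM in NTC, 30.7 and 61.6 CPM with shEVI1-2531 and 61.5 and 72.8 CPM with shEVI1-2532. Its level in NTC alone was 1.68 times as high at day 6 as at day 3. The shorter row lay between 2.91 and 4.23 CPM in the 6 libraries.

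**Figure D4:**
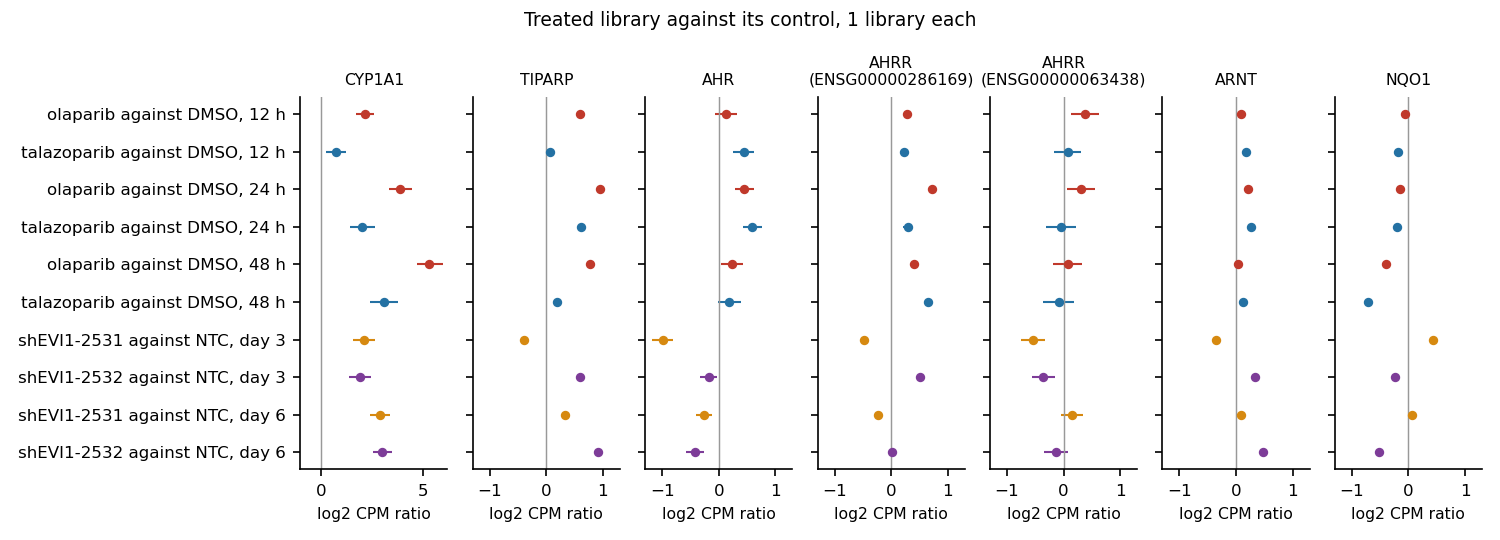
Log2 CPM ratio of each treated library to its control (DMSO of the same hour or NTC of the same day) for 7 rows of the members, with bars for the exact binomial 95% interval of the counts. The axis of CYP1A1 is wider than the others: its 10 ratios lie between 0.75 and 5.30, while those of the other rows lie between −0.99 and 0.95.

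In the edgeR test over all genes that reached 10 counts in 2 or more of the 6 libraries, 3235 of 18606 genes (17.4%) passed with shEVI1-2531, 1765 of them higher and 1470 lower, and 7648 (41.1%) with shEVI1-2532, 3942 higher and 3706 lower. Scaled to the library total only, the calls were 1049 higher and 2270 lower with shEVI1-2531, and 2360 higher and 5957 lower with shEVI1-2532. The genes called included *CYP1A1* of the members with shEVI1-2531, and *CYP1A1*, *TIPARP*, *ARNT* and the longer row of *AHRR* with shEVI1-2532. With shEVI1-2532, *ARNT* and *AHRR* were not called with no day in the model, and with library total scaling *AHRR* was not called and *NQO1* was. With shEVI1-2531, *NQO1* was also called when only this shRNA and NTC were fitted. Since these contrasts also chose the members, nothing is read from the calls of members. By the size of the CPM ratio, *CYP1A1* was the member past 2-fold in all 4 pairs, beside 21.5% of all genes at day 3 and 18.0% at day 6 with shEVI1-2531, and 32.6% and 32.8% with shEVI1-2532. *TIPARP* with shEVI1-2532 at day 6 was also past 2-fold with other scaling, with log2 ratios of 1.19 with TMM and 1.3 with upper quartile scaling against 0.91 by library total, and its fitted change over both days was 1.04 (95% interval 0.66 to 1.41). Leaving the day out of the model lowered the calls to 565 and 3536 genes.

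The scaling shifts some of these ratios. TMM scaling in place of the library total raised every log2 ratio to the control by 0.18 for olaparib and 0.26 for talazoparib at 48 h, by 0.16 at both days for shEVI1-2531, and by 0.20 at day 3 and 0.28 at day 6 for shEVI1-2532. Relative to that shift, *AHR* with shEVI1-2532 at day 3 went from −0.18 to 0.02. Scaling to the upper quartile, which shifts ratios by up to 0.39, gave 0.19 there, and turned *NQO1* to 0.14 and the shorter row of *AHRR* to 0.01 in the same pair. The directions of the log2 ratios given above for *CYP1A1* and *TIPARP* held under each scaling. Orders of levels across hours or experiments were by library total, and with TMM some changed, as given for both genes.

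The gene lists below were chosen with earlier results of these data known. Adjusted p-values of their genes are therefore a description and no independent support. The chaperones and coregulators of the receptor complex are a list of 12 genes, of which 11 were tested. With olaparib 1 rose and none fell, and the median log2 fold change of the list was 0.04 against −0.01 for all genes tested. The gene that rose was *SRC*, a tyrosine kinase held in the cytosolic AHR complex (log2 fold change 1.85, SE 0.20, adjusted p = 0.0147 in edgeR). It had 6.90, 4.22 and 3.83 CPM with DMSO and 16.4, 19.3 and 14.9 CPM with olaparib. With talazoparib 2 rose and 1 fell. *SRC* (1.91, adjusted p = 0.0109 in edgeR) and the coactivator *NCOA3* (0.68, adjusted p = 0.0399) were higher, and *PTGES3*, which encodes the cochaperone p23, was lower (−0.56, adjusted p = 0.0467). The chaperone genes *HSP90AA1* (−0.55, adjusted p = 0.0506 in edgeR) and *HSP90AB1* (−0.52, adjusted p = 0.0908) did not pass. Neither *NCOA3* (0.71, adjusted p = 0.0539 in edgeR) nor *PTGES3* (−0.31, adjusted p = 0.238) passed with olaparib, where the change of *NCOA3* was of like size. With shEVI1-2531 1 rose, *SRC*, and 1 fell, *NRIP1* (−1.08), a corepressor. With shEVI1-2532 4 rose, among them *SRC* (1.60), *NCOA3* (0.72) and *EP300* (0.53), and *NRIP1* fell (−1.56). The list's medians were 0.14 with talazoparib, 0.03 with shEVI1-2531 and 0.21 with shEVI1-2532. Over all genes tested, the median was within 0.01 of 0 in each of the 5 comparisons. The share of all genes that passed was 0.639% with olaparib, 4.0% with talazoparib, 17.4% with shEVI1-2531 and 41.1% with shEVI1-2532. Counts in this list and those below stand beside these shares, and no response of a list is read from them.

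Of 15 other genes known as AHR targets, 9 were tested, and the best known of the rest were near or at 0. *CYP1A2* had at most 1 count, *ALDH3A1* at most 3, and *UGT1A1* and *UGT1A6* had none in any library. With olaparib none of the 9 passed, and the median was 0.01 against −0.01 for all genes. *IL1B*, an inflammatory cytokine, had a log2 fold change of 2.0 (adjusted p = 0.0793 in edgeR) with olaparib and was the only gene of the list to rise with talazoparib (2.01, adjusted p = 0.0439). It had 35.4, 21.9 and 26.0 CPM with DMSO, 70.0, 117.4 and 169.5 CPM with olaparib and 59.4, 117.1 and 174.1 CPM with talazoparib, so that the inhibitors did not separate there as they did for *CYP1A1* (difference 0.01, SE 0.37). With shEVI1-2531 2 rose, *IL1B* (1.18) and *PTGS2* (0.92), and 3 fell, *STC2* (−0.84), *HES1* (−1.01) and *XDH* (−1.85). With shEVI1-2532 3 rose, *IL1B* (2.43), the cytochrome P450 gene *CYP2S1* (1.40) and *XDH* (1.14), and 3 fell, *SLC7A5* (−1.02), *STC2* (−1.21) and *HES1* (−2.87). The medians were 0.33 with talazoparib, −0.11 with shEVI1-2531 and 0.18 with shEVI1-2532. Among all genes tested, 17.4% passed with shEVI1-2531 and 41.1% with shEVI1-2532. *XDH*, which encodes xanthine dehydrogenase, thus passed in opposite directions with the shRNAs, a difference that was not tested directly.

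The enzymes that make or remove AHR ligands from tryptophan form a list of 9 names, 8 of them in the tables. Of the 6 tested with the inhibitors none passed, with a median of 0.98 with olaparib and 0.66 with talazoparib. *IDO1*, which opens the indole ring of tryptophan, had 16, 8.96 and 7.14 CPM with DMSO, 21.5, 21.9 and 67.6 CPM with olaparib and 17.7, 22.0 and 47.8 CPM with talazoparib (log2 fold changes 1.55 and 1.31, adjusted p = 0.215 and 0.107 in edgeR). Of the 5 tested with the shRNAs, 2 rose and 1 fell with shEVI1-2531, namely *IDO1* (2.92), the kynurenine monooxygenase gene *KMO* (1.19) and *IL4I1* (−1.69). With shEVI1-2532 2 rose, *KMO* (1.48) and *KYNU* (0.50), and the medians were 0.11 and 0.50. These calls stand beside 17.4% of all genes with shEVI1-2531 and 41.1% with shEVI1-2532.

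*NQO1* and *ARNT* also serve other pathways. Of 16 regulators and targets of NRF2, 13 were tested. None passed with either inhibitor, with medians of 0.12 and 0.10, while 8 rose and 1 fell with shEVI1-2531, and 6 rose and 1 fell with shEVI1-2532, with medians of 0.63 and 0.33. The largest rise was that of *HMOX1*, the heme oxygenase gene, with log2 fold changes of 4.62 and 2.98 (adjusted p = 1.03e-05 and 1.75e-05 in edgeR). It was followed by the ferritin gene *FTL* (1.19 and 1.76), and *PRDX1* fell (−0.72 and −0.88). Of 12 HIF partners of ARNT and hypoxia targets 11 were tested, and *ADM* (1.52, adjusted p = 0.0298 in edgeR) and *NDRG1* (1.04, adjusted p = 0.0321) rose with olaparib. With talazoparib *ADM* (1.28), *NDRG1* (1.07) and *EPAS1* (1.62, adjusted p = 0.0486 in edgeR) rose. With shEVI1-2531 2 rose and 1 fell, and with shEVI1-2532 5 rose and 4 fell, *PDK1* falling with both (−1.03 and −1.11). The medians of this list lay between −0.08 and 0.08 in the comparisons with a control. The calls of both lists stand beside 17.4% of all genes with shEVI1-2531 and 41.1% with shEVI1-2532. For talazoparib against olaparib no gene of any list passed. Every call named for an inhibitor in these lists is lost without the 24 h libraries, when no gene at all was called.

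Markers of other cell states were counted in the same libraries. The summed level of 12 monocyte maturation markers was 1182, 1540 and 1520 CPM with DMSO at 12, 24 and 48 h, 1431, 2992 and 9108 CPM with olaparib and 1431, 4427 and 14373 CPM with talazoparib. At 24 and 48 h it was thus higher with talazoparib than with olaparib, the reverse of the order of *CYP1A1*. In NTC it was 1652 and 1361 CPM, with shEVI1-2531 2962 and 2721 CPM, and with shEVI1-2532 8888 and 9485 CPM. With shEVI1-2531 7 of the 12 rose and with shEVI1-2532 10, and *CYP1A1* reached like levels with both. With olaparib none of the 12 passed and with talazoparib 2 did, *ITGAM* (1.80) and *FCN1* (1.54). *LYZ*, the lysozyme gene, had 362 CPM with DMSO, 1809 CPM with olaparib and 3496 CPM with talazoparib at 48 h. Of 7 progenitor markers 6 were tested with the inhibitors, and none passed. With shEVI1-2531 1 of 7 rose and 3 fell, and with shEVI1-2532 6 fell, *CD34* among them (−6.78). Among all genes tested, 17.4% passed with shEVI1-2531 and 41.1% with shEVI1-2532. The medians of the monocyte markers were 1.18 with olaparib, 1.58 with talazoparib, 1.23 with shEVI1-2531 and 2.53 with shEVI1-2532, and those of the progenitor markers −0.35, −0.67, −0.70 and −2.68.

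Since the medium came from bladder carcinoma cells, 12 urothelial and epithelial markers were also counted. *KRT5* and *UPK1B* had 0 counts in every library, *CDH1* and *TP63* at most 1 and *EPCAM* at most 3, and these markers, named after their values were seen, were thus at or near 0, whereas others of the list were not. The sum of the 12 was 127 to 171 CPM with DMSO, 185 to 877 CPM with olaparib, 181 to 958 CPM with talazoparib, 296 to 363 CPM in NTC, 630 to 961 CPM with shEVI1-2531 and 907 to 1047 CPM with shEVI1-2532. Most of it was *KRT17*, a keratin gene, with 86.7 to 987 CPM. *KRT17* had a log2 fold change of 1.5 with olaparib (adjusted p = 0.145 in edgeR) and 1.68 with talazoparib (adjusted p = 0.0506), and rose with both shRNAs (1.55 and 1.96). Of the 3 tested with the inhibitors none passed. With shEVI1-2531 1 rose and 1 fell, *S100P* (−0.68), and with shEVI1-2532 all 4 tested rose. Among all genes tested, 17.4% passed with shEVI1-2531 and 41.1% with shEVI1-2532. *UPK3A*, a uroplakin gene, had 1.09 to 1.59 CPM in NTC and 3.21 to 3.62 CPM with shEVI1-2532 (log2 fold change 1.68, adjusted p = 0.000498 in edgeR). *KRT13*, another keratin gene, rose by a log2 fold change of 2.80 with shEVI1-2532 (adjusted p = 0.00662 in edgeR), from 3 to 6 counts in NTC to 16 to 30 counts. The part of the monocyte, progenitor and epithelial markers in the values of *CYP1A1* was not tested.

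The genes whose log2 ratios to the control were most like those of *CYP1A1* over the 10 treated libraries were *C1QA* (Pearson's r = 0.88), *NOMO3* (0.86) and *ZNF200* (0.86), out of 12432 genes with a mean of at least 1 CPM. The log2 ratio of *C1QA*, a complement gene, was −0.27 with talazoparib at 12 h and 5.83 with olaparib at 48 h. *NOMO3* has near-identical copies, and its counts are uncertain. For *TIPARP* the most alike were *ZFYVE16* (0.93), *VPS37A* (0.93) and *DRAM2* (0.92), for *AHR* *ZNF91* (0.98), *ZNF570* (0.97) and *AC008105.3* (0.97), for *ARNT* *PJA2* (0.96), *TRAK2* (0.95) and *FNDC3A* (0.95), and for *NQO1* *TSTA3* (0.97), *RCC1L* (0.97) and *COQ2* (0.97). For *AHRR* they were *CLK3* (0.98), *PGPEP1* (0.95) and *KDM2A* (0.94) by the longer row and *MREG* (0.94), *RAB28* (0.93) and *MRTFB* (0.92) by the shorter one. No gene was on the list of more than 1 member. These are descriptions, since the 10 ratios share 5 control libraries and the best of 12432 genes were taken.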

How the data were processed

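The data are 16 RNA-Seq libraries of MUTZ-3 cells (TruSeq Stranded mRNA, paired ends), 1 per condition. They were grouped by their GEO labels. The values that the authors deposited are raw counts and TPM of each gene. The submitters' processing notes name STAR, Picard, featureCounts and hg38/GRCh38, with no roles, versions or strand setting, so that reads of overlapping genes on opposite strands may not be told apart. Per the file headers the TPM sit beside the counts, and they matched counts scaled over the whole gene span (largest difference 5.09e-11). They served only as that check.

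CPM are counts over the total of the library. Ratios of pairs carry exact binomial 95% intervals and levels exact Poisson 95% intervals, for counting error only. Genes that reached 10 counts in 3 or more of 9 PARPi libraries, or in 2 or more of 6 knockdown libraries, were scaled with TMM and fitted with edgeR 4.0.16 (quasi-likelihood test, R 4.3.3), with time point or day as a factor and 1 coefficient per inhibitor or shRNA. This left 4 and 2 residual degrees of freedom. P-values were adjusted after Benjamini-Hochberg over all genes, with a threshold of 0.05. The untreated library shares no time with a treated one and was left out of the fits. Alternatives were DESeq2 1.42.0, upper quartile or library total scaling, no filter on low counts, each time point left out, no day in the model, only 1 shRNA with NTC, and the mean of the DMSO libraries as control.

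The members and gene lists were chosen with earlier results of these data known. Of each list, up to 3 genes per direction and comparison that passed are named, by size of change, and up to 2 that did not, by mean level. The defining epithelial markers and the other AHR targets at or near 0 were named after their values were seen, and a marker of that list is not reported here. Genes with like profiles were ranked by Pearson's r of log2 ratios (0.1 CPM added). Exon lengths came from GENCODE 29 and promoter windows from RefSeq. GENCODE 29 lacks the longer row of *AHRR*, so the counts rest on another annotation than these lengths.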

Additional observations from a re-analysis of the deposited data

Results flagged for a closer look

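*AHR* in the untreated library at 0 h, which enters no comparison of the report, had 19.3 CPM, above the 6.25 to 7.32 CPM of the 3 DMSO libraries (2.64 to 3.09 times as high). It is 1 library, and what sets it apart was not tested.

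The longer row of *AHRR* (ENSG00000286169) was below NTC with shEVI1-2531 at day 3, with a log2 ratio of −0.49, and above it with shEVI1-2532, with 0.52. At day 6 its log2 ratios were −0.23 with shEVI1-2531 and 0.01 (−0.03 to 0.06) with shEVI1-2532. *NQO1* was above NTC with shEVI1-2531 at day 3 by 0.43 and below it with shEVI1-2532, with −0.24, and at day 6 the directions were the same (0.05 and −0.53). These are ratios by library total. With shEVI1-2532 at day 3 that of *NQO1* was −0.04 with TMM and 0.14 with upper quartile scaling. The difference between the shRNAs was not tested for either gene.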

How the results depend on the processing

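The number of genes called for olaparib against DMSO, 110 as reported, was 669 with DESeq2, 977 with no filter on low counts and 0 to 934 with a time point left out. For talazoparib against DMSO, 688 as reported, it was 3740 with DESeq2, 3876 with no filter, 179 with library total scaling and 0 to 3954 with a time point left out. For talazoparib against olaparib, 0 as reported, it was 1 with DESeq2, 5 with no filter and 0 to 2 with a time point left out. For shEVI1-2531 and shEVI1-2532, 3235 and 7648 as reported, it was 565 and 3536 with no day in the model. Library total and upper quartile scaling kept the counts for olaparib (77 and 119) within 1.5 times. Leaving a time point out fits fewer libraries, and the causes of the other shifts were not tested. Of the alternative values of single library ratios, 127 moved by less than their counting interval, 92 by more, and 5 changed direction: *NQO1* with olaparib at 12 h to 0.068 against the mean of the DMSO libraries, and with shEVI1-2532 at day 3 *AHR* to 0.018 with TMM and 0.19 with upper quartile scaling, the shorter *AHRR* row to 0.013 and *NQO1* to 0.14 with upper quartile scaling. No paired analysis was possible because each condition has 1 library and the shared replicate number pairs nothing beyond the time point or day already in the model. Depth limits *CYP1B1*, and the DMSO and NTC levels of *CYP1A1* rest on 22 to 53 counts.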
